A study of Homo sapiens with 7 samples.

Results

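The H3K27ac peaks described here lie in 11 windows of the human genome drawn around genes for cardiac transcription factors and bone morphogenetic proteins (BMPs). A peak belonged to a window when its midpoint fell inside it, on build hg19. The windows covered 15.6 Mb and held 342 of the 36596 peaks in the deposited list, or 0.935% of it. The genes that define the windows are TBX5 and TBX3, TBX2, NKX2-5 and MSX2, GATA4, GATA6, HAND2, IRX4 with IRX2 and IRX1, IRX3 and IRX5, MSX1, BMP2, and BMP4. The windows were set by position and not by any measured value of the peaks, though they were chosen with earlier results of these data known.

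All samples came from cardiac cells differentiated from H1, an established line of human embryonic stem cells. Chromatin was from day 15 cells given CHIR, the common short name of a GSK3 inhibitor that switches on canonical Wnt signalling, and it was immunoprecipitated for H3K27ac in 2 replicates with 2 matching input samples. The labels call these cells cardiac and their protocol calls them cardiomyocytes, with no sorting step named. RNA was read in single cells from day 15 with CHIR, day 15 with DMSO, the vehicle, and day 11 with no treatment given, in 1 library each. The dose of CHIR and its time of addition are not given in the sources used here.

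H3K27ac is acetylation of lysine 27 on histone H3, a mark of active promoters and enhancers. Long runs of closely spaced marked elements are common around genes that set a cell's identity. In the embryonic heart the GATA, NKX2-5, HAND2 and TBX5 proteins act together to turn on muscle genes. TBX2 and TBX3 restrain the working-muscle programme in the atrioventricular canal, where BMP2 and BMP4 signal and where the MSX factors are expressed with the cushions.

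The deposited peaks carry hg19 coordinates, and no hg19 genome or gene annotation was used, so no peak was assigned to a gene and no peak sequence is shown. A window carries the names of the genes it was drawn for, and any of its peaks, the strongest included, may belong to another gene. For orientation, promoters of window genes were taken from RefSeq on GRCh38.p14, as the 250 bases before the transcription start. The table held 9 of the 16 window genes, with 14 start sites. Their GC content ran between 49.6% and 79.2%, beside a median of 58.0% over all 35116 promoters of the table. They held between 13 and 40 CpG pairs, beside a median of 11. GATA6 and HAND2 are shown because their windows hold 2 of the widest peaks in the list, and MSX1 because its RNA differed strongly between the libraries. Capitals mark matches to 5 short motifs, searched on both strands, which were AGATAA for GATA factors, AGGTGT for T-box factors, CTTTGA for TCF/LEF, AAGTGG for NKX2 factors and the palindrome GGCGCC for SMADs.
GATA6 promoter (GRCh38.p14 chr18:22169339-22169588, plus strand): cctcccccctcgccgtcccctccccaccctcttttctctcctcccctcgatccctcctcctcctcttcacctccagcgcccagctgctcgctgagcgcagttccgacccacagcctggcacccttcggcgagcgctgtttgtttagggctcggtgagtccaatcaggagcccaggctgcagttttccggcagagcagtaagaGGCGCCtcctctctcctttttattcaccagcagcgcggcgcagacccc
HAND2 promoter (GRCh38.p14 chr4:173530230-173530479, minus strand): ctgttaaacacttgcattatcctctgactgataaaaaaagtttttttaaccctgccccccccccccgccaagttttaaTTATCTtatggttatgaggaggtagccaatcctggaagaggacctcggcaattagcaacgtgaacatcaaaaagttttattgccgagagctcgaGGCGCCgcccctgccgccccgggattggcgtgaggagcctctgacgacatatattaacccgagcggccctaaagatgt
MSX1 promoter (GRCh38.p14 chr4:4859415-4859664, plus strand): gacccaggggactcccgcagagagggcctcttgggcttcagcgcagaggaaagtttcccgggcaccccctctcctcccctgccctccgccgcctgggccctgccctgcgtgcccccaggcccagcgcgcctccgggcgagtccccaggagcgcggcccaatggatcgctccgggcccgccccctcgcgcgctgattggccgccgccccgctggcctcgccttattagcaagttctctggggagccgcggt

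The GATA6 promoter held GGCGCC 48 bases before the start. The HAND2 promoter held GGCGCC 78 bases and the reverse strand match to AGATAA 172 bases before the start, with no overlap between them. The MSX1 promoter had a GC content of 74.0% and none of the 5 motifs in this window. These short words are common. Of all promoters in the table, 9.17% held AGATAA, 9.57% AGGTGT, 11.2% CTTTGA, 13.5% AAGTGG and 16.4% GGCGCC. The peaks cannot be laid onto these sequences, because the builds differ.

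The windows were dense in peaks, and strong peaks were a smaller share of theirs than of the list. Peaks lay at 21.9 per Mb in the windows, against a mean of 11.9 and a median of 6 per Mb over 3063 bins of 1 Mb along the genome. They covered 1.40% of the windows and 0.706% of the bins. The median fold enrichment, the authors' ratio of signal over background at each peak, was 5.41 in the windows and 5.69 in the rest of the list. Of the 342 peaks, 18 (5.26%) were in the top 10% of the list by fold enrichment, which starts at 16.6-fold and holds 10.0% of all peaks. By the authors' −log10 q-value the count was also 18, beside 10.0% of all peaks. The peaks were close to the rest in width as well, with a median of 355.5 bases in the windows and 382 bases in the rest.

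By width, 35 of the 342 peaks (10.2%) were in the top 10%, close to the 10.0% of all peaks. Above 5000 bases there were 4 of them (1.17%), beside 0.0547% of all peaks, or 20 in the list. Joining neighbouring peaks, at the gap commonly used to stitch enhancers into super-enhancers, put 145 (42.4%) of the 342 peaks into clusters of at least 5, beside 35.7% of all peaks. In clusters of at least 10 were 88 (25.7%), beside 16.7% of all peaks. None of the 120 clusters in the windows was cut by a window's end. The list is 1 merged set with no values per replicate, so no error between replicates and no test can be given for any peak value.

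**Figure D1:**
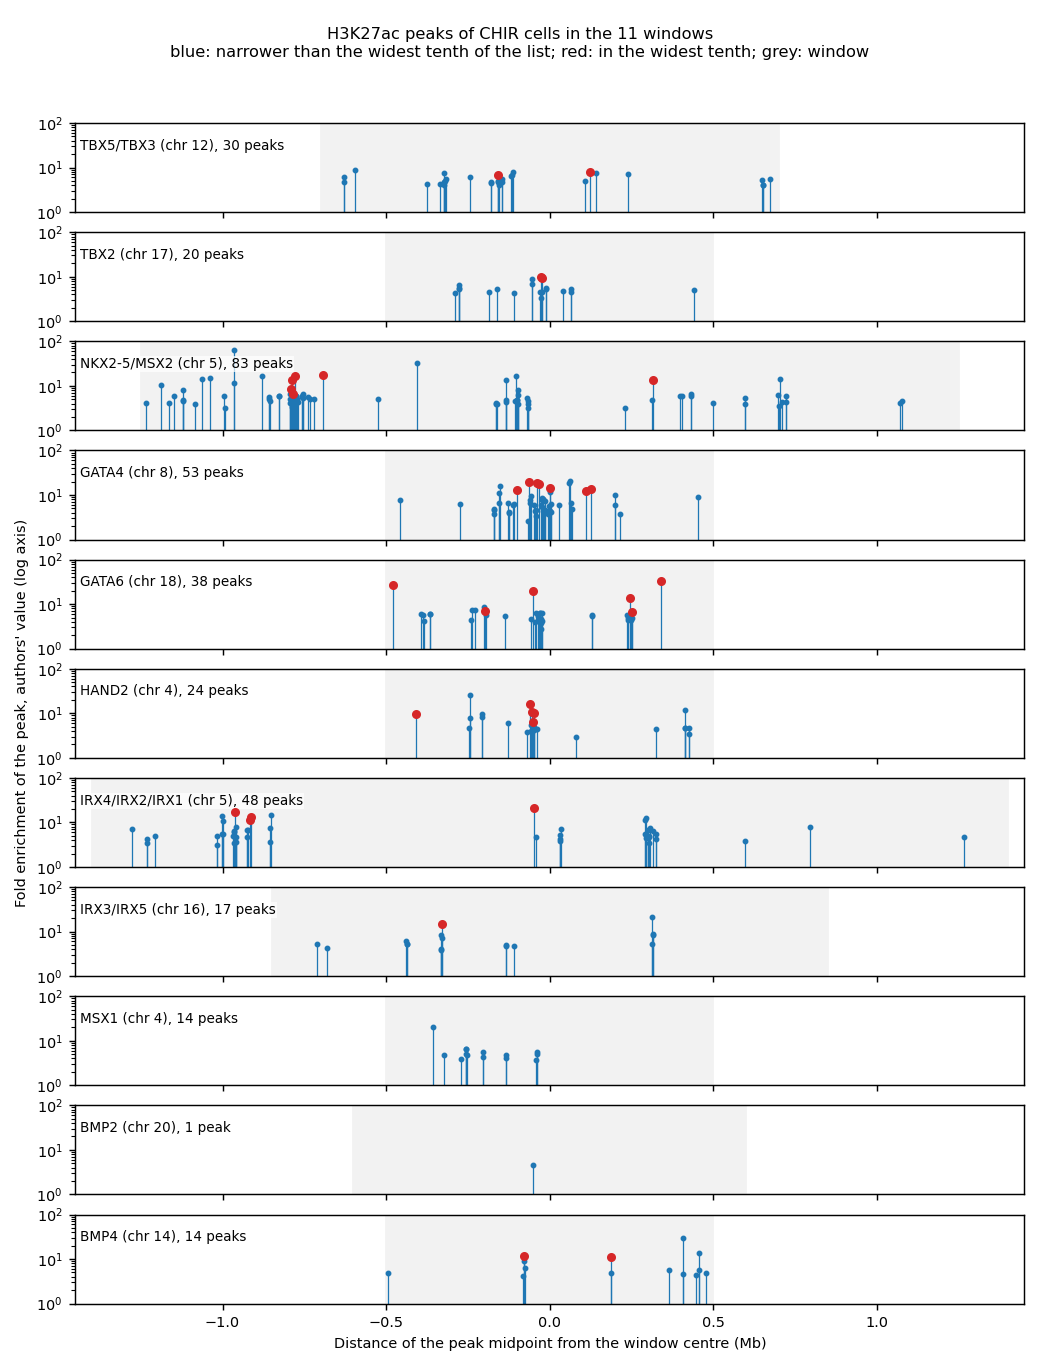
Peaks in each of the 11 windows, at the distance of their midpoint from the window centre (x axis, Mb) and with their fold enrichment (y axis, log scale); grey shading is the window and red points are peaks in the widest 10% of the list. The GATA4 window holds 53 peaks within 1 Mb, and the BMP2 window a single peak of 4.56-fold.

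**Figure D2:**
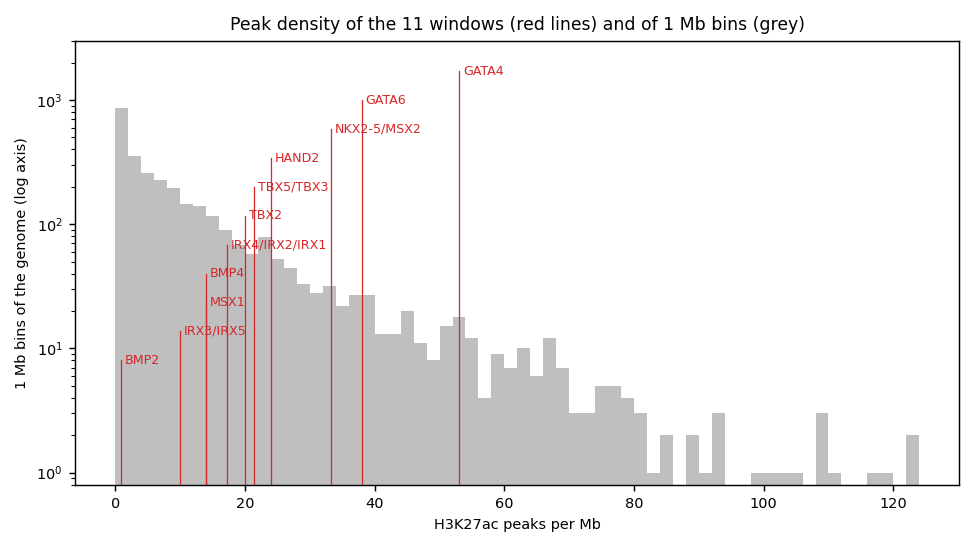
Number of 1 Mb genome bins (y axis, log scale) at each density of H3K27ac peaks (x axis, peaks per Mb), with red lines at the density of each window; the height of a line has no meaning. GATA4, at 53 per Mb, lies above 96.0% of the bins and BMP2, at 0.833 per Mb, above 20.6%.

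GATA4 and GATA6 encode zinc finger proteins that open chromatin and turn on heart genes. Their windows were the densest of the 11. The GATA4 window (chr8, 11.1 to 12.1 Mb) held 53 peaks in 1 Mb, more than 96.0% of the genome's bins, and 3.97% of it was covered. The GATA6 window (chr18, 19.3 to 20.3 Mb) held 38 peaks, more than 92.3% of the bins, with 2.93% covered. Most of the GATA4 peaks lay near the middle, 50 of 53 within 250 kb of the centre, and 30 of the 38 GATA6 peaks did.

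The GATA4 window had the largest cluster of the 11 windows. It ran over chr8:11533530-11604659 with 28 peaks in 71.1 kb, and peaks covered 24258 bases, 34.1% of the span. By bases covered it ranked 10th of the list's 15740 clusters and by number of peaks 29th. It held 2 peaks wider than 5000 bases, chr8:11557739-11563263 with 5525 bases at 18.6-fold and chr8:11533885-11539127 with 5243 bases at 19.5-fold. The strongest peak of the window lay outside this cluster, at chr8:11660165-11661122 with 958 bases and 20.5-fold.

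The widest of all 36596 peaks lay in the GATA6 window, at chr18:19743945-19753069, with 9125 bases, a fold enrichment of 20.1 and a −log10 q of 93.5. Around it was a cluster of 15 peaks over chr18:19742619-19775264, 45.0% of whose 32.6 kb was covered. The other 14 peaks of that cluster were narrow and weak by comparison, so that the cluster's median fold was 4.70. The 2 strongest peaks of the window stood alone, at chr18:20138874-20140633 with 33.2-fold and chr18:19320303-19321892 with 26.3-fold.

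HAND2 encodes a helix-loop-helix protein needed for the right ventricle. Its window (chr4, 174 to 175 Mb) held 24 peaks, more than 84.5% of the bins, and 2.25% of it was covered. A cluster of 10 peaks over chr4:174429061-174459910 had 44.1% of its 30.9 kb covered and ranked 63rd of all clusters by bases covered but 316th by number of peaks. In it were the widest peak of the window, chr4:174442275-174447663 with 5389 bases at 10.9-fold, and chr4:174437884-174440943 with 3060 bases at 16.3-fold, the second of which was singled out after its values were seen. The strongest peak was again elsewhere, at chr4:174254496-174255627 with 1132 bases and 25.4-fold, 190 kb from the widest.

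NKX2-5, the homeobox factor of early heart muscle, and MSX2, a homeobox factor of the cushions, share a window of 2.5 Mb (chr5, 172.2 to 174.7 Mb). It held 83 peaks, or 33.2 per Mb, more than 90.7% of the bins. The largest cluster, chr5:172655628-172696937, had 22 peaks with 39.3% of its 41.3 kb covered, and its folds ran between 3.23 and 16.3 with a median of 5.49. The strongest peak of all 342 was in this window but outside that cluster, at chr5:172483216-172484186, with 971 bases, a fold of 64.6 and a −log10 q of 384. It ranked 10th in the list by fold. A lone peak at chr5:173042839-173043766 reached 32.3-fold, and the widest peak, chr5:172754583-172757883, also stood alone with 3301 bases at 17.6-fold. The next peak outside this window, 1.78 kb beyond its start, had a fold of 33.2 and was not counted.

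**Figure D3:**
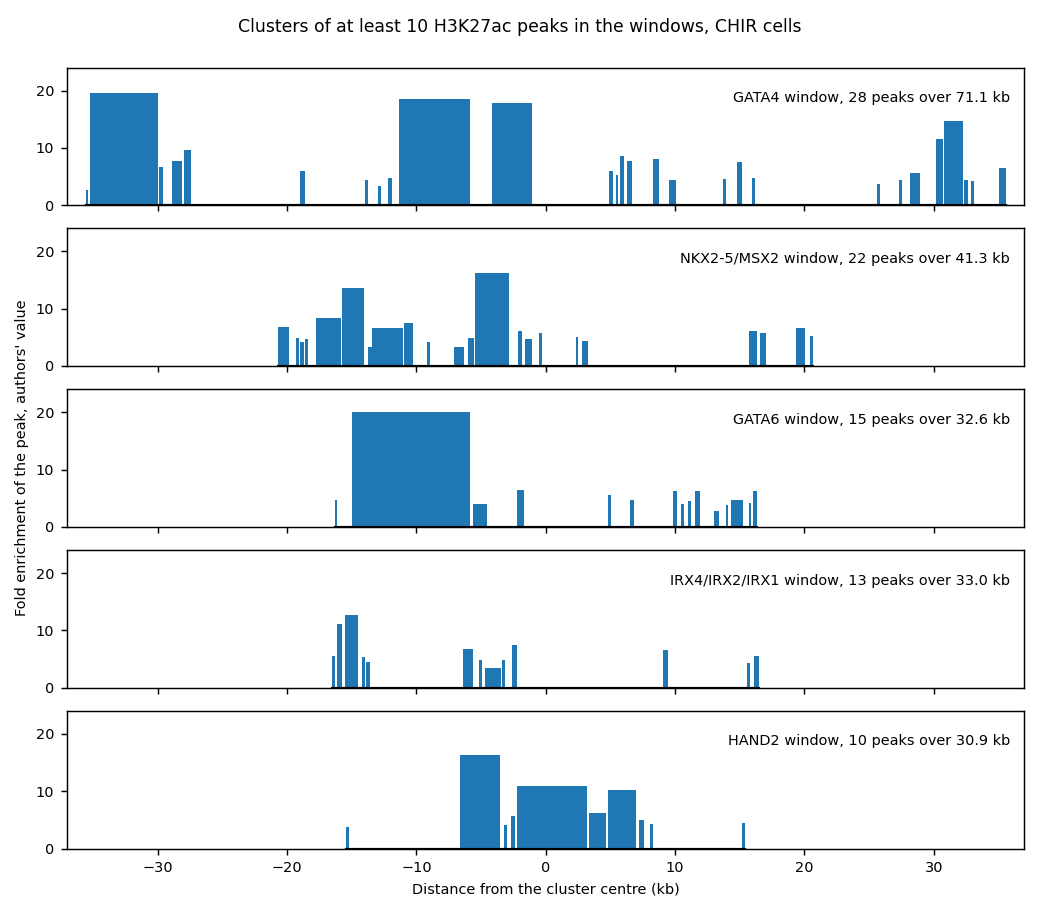
The 5 clusters of at least 10 peaks, each peak drawn to scale as a bar over its own width at the distance from the cluster centre (x axis, kb) with its fold enrichment as height (y axis). In the GATA6 cluster 1 peak of 9125 bases stands beside 14 narrow ones, whereas the GATA4 cluster of 28 peaks is spread over 71.1 kb.

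The T-box windows had many peaks and no strong one. TBX5 drives atrial and left ventricular muscle genes, and TBX3 and TBX2 repress them in the conduction system and the canal. The window of TBX5 and TBX3 (chr12, 114.3 to 115.7 Mb) held 30 peaks, 21.4 per Mb and more than 81.9% of the bins. Its strongest peak reached 8.71-fold (chr12:114403573-114404153) and its widest 1471 bases (chr12:114842407-114843877). Peaks were spread out, in 14 clusters of which the 2 largest, chr12:114665744-114682983 and chr12:114840966-114854230, had 6 peaks each.

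The TBX2 window (chr17, 59 to 60 Mb) held 20 peaks, more than 80.1% of the bins, and 12 of them lay within 100 kb of its centre. Its strongest peak, chr17:59473493-59475190 with 1698 bases at 9.82-fold, and its widest, chr17:59476243-59478616 with 2374 bases at 9.13-fold, were 3.09 kb apart. Both belonged to a cluster of 7 peaks over chr17:59471327-59489345. Neither T-box window had a peak in the top 10% of the list by fold, and nor did the BMP2 window. Over all windows 5.26% of peaks were in that class, beside 10.0% of the list. Each T-box window had 2 peaks in the top 10% by width. These were 6.67% of the 30 peaks at TBX5 and TBX3 and 10% of the 20 at TBX2, beside 10.0% of all peaks.

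The Iroquois genes encode homeobox factors that pattern ventricular muscle and conduction, and sit in 2 clusters of 3 genes in the genome. The window of IRX4, IRX2 and IRX1 (chr5, 1.4 to 4.2 Mb) held 48 peaks, 17.1 per Mb and more than 77.9% of the bins. Its largest cluster, chr5:3090819-3123829, had 13 peaks but covered only 18.0% of its 33.0 kb. The strongest peak, chr5:2750446-2752713, had 2268 bases at 21.2-fold, and the widest, chr5:1885009-1887870, had 2862 bases at 13.3-fold.

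The window of IRX3 and IRX5 (chr16, 53.8 to 55.5 Mb) was sparser, with 17 peaks, 10 per Mb and more than 61.9% of the bins. Its largest cluster, chr16:54316893-54321466, was compact, with 5 peaks covering 75.8% of its span, and held the widest peak, chr16:54319320-54320876, of 1557 bases at 14.6-fold. The strongest, chr16:54962338-54963093, reached 21.1-fold 643 kb away.

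MSX1, like MSX2, is a homeobox factor that answers to BMP signals. Its window (chr4, 4.4 to 5.4 Mb) held 14 peaks, more than 71.1% of the bins, and a single peak, chr4:4543106-4544320, was both the strongest at 20.4-fold and the widest at 1215 bases. The other 13 peaks were at most 6.64-fold. The last of them lay 538 kb before the window's end, so that the later part of the window had no peak.

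The 2 BMP ligand windows differed from each other. The BMP4 window (chr14, 54 to 55 Mb) held 14 peaks, the same density as MSX1. Its strongest peak was chr14:54907087-54908162 with 1076 bases at 29.8-fold. The widest peak, chr14:54420177-54422121 with 1945 bases at 11.8-fold, was 486 kb away in a group of 4 peaks over chr14:54418502-54423203. A wider peak of 3659 bases at 17.1-fold lay 33.6 kb beyond the end of the window.

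The BMP2 window (chr20, 6.2 to 7.4 Mb) held 1 peak in 1.2 Mb. It was chr20:6748146-6748627, of 482 bases, 4.56-fold and a −log10 q of 7.41. Of the 3063 genome bins 632 (20.6%) were empty, and those were the only bins of lower density. The nearest peaks outside this window were 96.4 kb before its start, at 9.94-fold, and 600 kb past its end, at 10.2-fold.

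In 9 of the 11 windows the strongest and the widest peak were different peaks, with MSX1 and BMP2 the exceptions, and in the TBX2 window the pair lay in 1 cluster. Of the 10 strongest peaks over all windows, between 20.4-fold and 64.6-fold, 4 stood alone, 6 were in groups of 2 to 4 and 0 in a cluster of at least 5, where 42.4% of the window peaks and 35.7% of all peaks lay. The 88 peaks in clusters of at least 10 had a median fold of 5.56, and 4 (4.55%) were in the top 10% by fold, against a median of 5.38 and 14 (5.51%) for the other 254 peaks. In the top 10% by width were 13 of the 88 and 22 of the 254, the larger share being that of the 88. Over all window peaks it was 10.2%, beside 10.0% of the list. All 4 peaks wider than 5000 bases were in clusters of at least 10, and 3 of them were in the top 10% by fold. The 4 strong peaks in those clusters were between 3122 and 9125 bases wide.

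**Figure D4:**
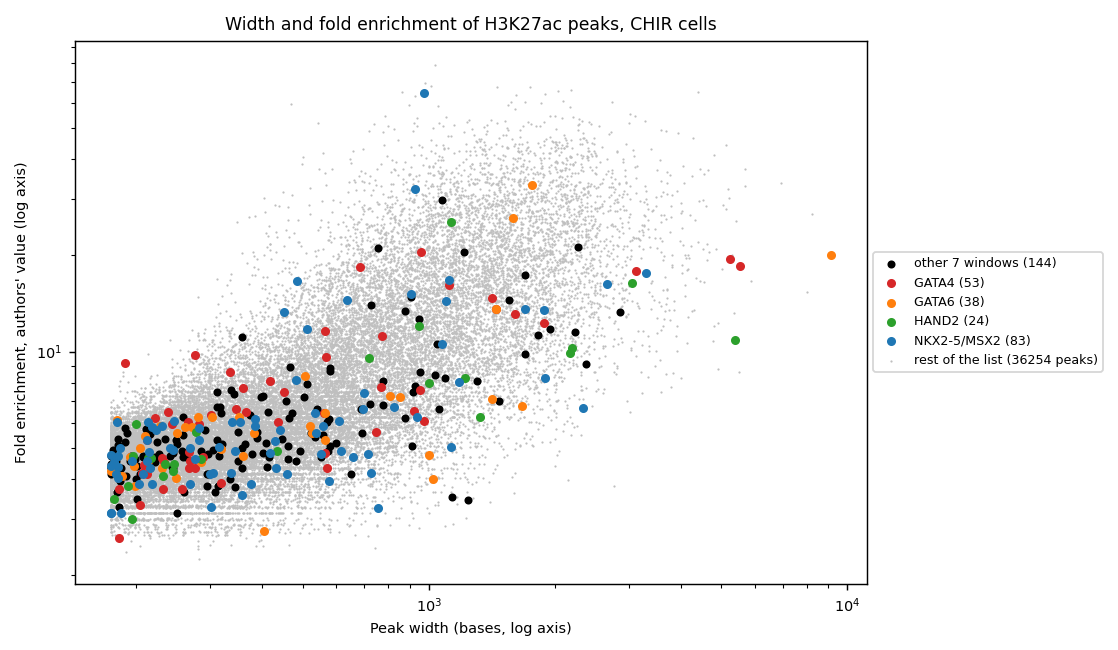
Width (x axis, bases, log scale) and fold enrichment (y axis, log scale) of each peak, with the windows of GATA4, GATA6, HAND2 and NKX2-5/MSX2 in colour, the other 7 windows in black and the rest of the list in grey. The 9125-base GATA6 peak lies furthest right, and the 64.6-fold NKX2-5/MSX2 peak stands among narrower peaks near the top.

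Across the 11 windows, density ranked much as the width of the widest peak did (Spearman's rho 0.85, n = 11), and less as the highest fold did (rho 0.43, n = 11). A maximum tends to rise with the number of peaks it is taken from. Neither value can therefore tie density to wide or strong peaks. Density did not rank as the summed RNA of a window's genes in CHIR cells did (rho −0.01, n = 11). These are descriptions, since all windows share 1 peak list and 1 RNA library and hold between 1 and 3 named genes.

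RNA of the 16 window genes was summed over the cells of each library as unique molecular identifiers (UMIs) and scaled to a library total of 1000000 (CPM). Of the 16 genes, 10 were at least 1.5-fold higher with CHIR than with DMSO, beside 25.6% of all genes, and 2 were at least 1.5-fold lower, beside 26.2% of all genes. The median log2 ratio was 1.18 over the 16 genes and 0.03 over all genes. The 16 genes were chosen with earlier results of these data known. Their counts beside all genes, here and below, are therefore descriptions only. Each group was 1 library, so there is no replicate check, and the 95% intervals given below cover counting error only. In such sums fewer cells of a type and less RNA per cell cannot be told apart. The summed cardiomyocyte markers were lower with CHIR (8763 CPM) than with DMSO (23927 CPM), with all 10 of 10 detected in both, and the summed mesenchymal markers were 2592 CPM with CHIR and 2039 CPM with DMSO, with 8 of 8 detected in both. Their part in the ratios of all cells was not tested. Beside each group of window genes stand the ratios among sarcomere-rich cells. Those are the 25% of each library with the highest share of UMIs from the cardiomyocyte markers. These cells were not matched between libraries. Their median share was 2.57% with CHIR and 6.15% with DMSO, their cardiomyocyte markers summed to 26230 CPM with CHIR and 69086 CPM with DMSO, and their mesenchymal markers to 570 CPM with CHIR and 299 CPM with DMSO.

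Among the T-box genes TBX3 had the largest ratio, with 102 CPM with CHIR and 14.6 CPM with DMSO, a 7.02-fold difference (6.57 to 7.52). TBX2 had 57.9 CPM with CHIR and 23.0 CPM with DMSO (2.52-fold, 2.38 to 2.67). TBX5 had 57.2 CPM with CHIR and 27.9 CPM with DMSO (2.05-fold, 1.94 to 2.16). The peaks in the windows of these 3 genes reached at most 9.82-fold. Among sarcomere-rich cells the CHIR over DMSO ratios were 3.09 for TBX3, 1.71 for TBX2 and 1.26 for TBX5.

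The cushion factors were higher with CHIR. MSX1 had 242 CPM with CHIR and 35.2 CPM with DMSO (6.86-fold, 6.57 to 7.17). MSX2 had 144 CPM with CHIR and 49.4 CPM with DMSO (2.92-fold, 2.81 to 3.03). Among sarcomere-rich cells the ratios were 6.34 for MSX1 and 1.84 for MSX2.

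The 2 ligands differed in opposite directions. BMP4 had 144 CPM with CHIR and 57.9 CPM with DMSO (2.49-fold, 2.40 to 2.59), and BMP2 had 14.9 CPM with CHIR and 58.9 CPM with DMSO (3.96-fold lower with CHIR, 3.71 to 4.23). Ratios among sarcomere-rich cells were 2.41 for BMP4 and 0.300 for BMP2. Day 11 cells had 110 CPM of BMP2 and 47.0 CPM of BMP4. BMP2, the ligand with 1 peak in its window, was the gene with the lowest ratio of the 16. Its level with CHIR was close to those of IRX1 (15.1 CPM) and IRX5 (14.3 CPM), whose windows held 48 and 17 peaks. Those windows are shared with genes at higher levels, IRX2 (75.4 CPM) and IRX4 (34.1 CPM) beside IRX1, and IRX3 (66.3 CPM) beside IRX5. Their peaks were not assigned to any of these genes. A link between peaks and ratios was not tested. Chromatin was analysed here only with CHIR, so the peaks have no DMSO values beside them.

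The core cardiac factors differed less. NKX2-5 had 198 CPM with CHIR and 326 CPM with DMSO (1.65-fold lower with CHIR, 1.61 to 1.68), and among sarcomere-rich cells the ratio was 0.813. GATA4 had 42.5 CPM with CHIR and 61.4 CPM with DMSO, a ratio of 0.692 that was also 0.692 among sarcomere-rich cells. GATA6 had 78.5 CPM with CHIR and 62.2 CPM with DMSO, a ratio of 1.26 that was 0.907 among sarcomere-rich cells. HAND2 had 75.6 CPM with CHIR and 80.9 CPM with DMSO, a ratio of 0.934 that was 0.875 among sarcomere-rich cells. The HAND2 ratio became 1.07 when mitochondrial and ribosomal protein genes were left out of the totals. The 4 peaks wider than 5000 bases lay in the windows of GATA4, GATA6 and HAND2. These genes were within 1.5-fold between the libraries, where 25.6% of all genes were higher and 26.2% lower with CHIR by that measure. With each cell weighted equally GATA4 was past it, at a ratio of 0.629. A link between peak width and RNA ratio was not tested.

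All 5 Iroquois genes of the windows had ratios above 1, with IRX4 at 0.892 when each cell was weighted equally. IRX6, an Iroquois gene not among the window genes, went the other way at low counts, 5 UMIs with CHIR and 71 with DMSO. It had 0.0617 CPM with CHIR and 1.08 CPM with DMSO (17.5-fold lower with CHIR, 7.17 to 55.6). IRX2 had 75.4 CPM with CHIR and 13.5 CPM with DMSO (5.59-fold, 5.21 to 6.004). IRX5 had 14.3 CPM with CHIR and 4.29 CPM with DMSO (3.33-fold, 2.93 to 3.81), IRX1 15.1 CPM with CHIR and 5.73 CPM with DMSO (2.63-fold, 2.34 to 2.96), and IRX3 66.3 CPM with CHIR and 34.8 CPM with DMSO (1.91-fold, 1.82 to 2.004). IRX4, a ventricular factor, had 34.1 CPM with CHIR and 26.3 CPM with DMSO (1.30-fold, 1.22 to 1.38). Among sarcomere-rich cells the ratios were larger for all 5, between 2.28 for IRX4 and 8.48 for IRX2.

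At day 11 the levels were 100.1 CPM for TBX5, 26.7 for TBX3, 45.7 for TBX2, 355 for NKX2-5, 358 for GATA4, 103.8 for GATA6 and 91.3 for HAND2. They were 49.0 for MSX2, 36.8 for MSX1, and between 4.43 (IRX1) and 75.4 (IRX3) for the Iroquois genes of the windows. The CHIR library was 0.74 lower than day 11 on the log2 scale at the median of all genes, so these levels are given without a comparison.

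**Figure D5:**
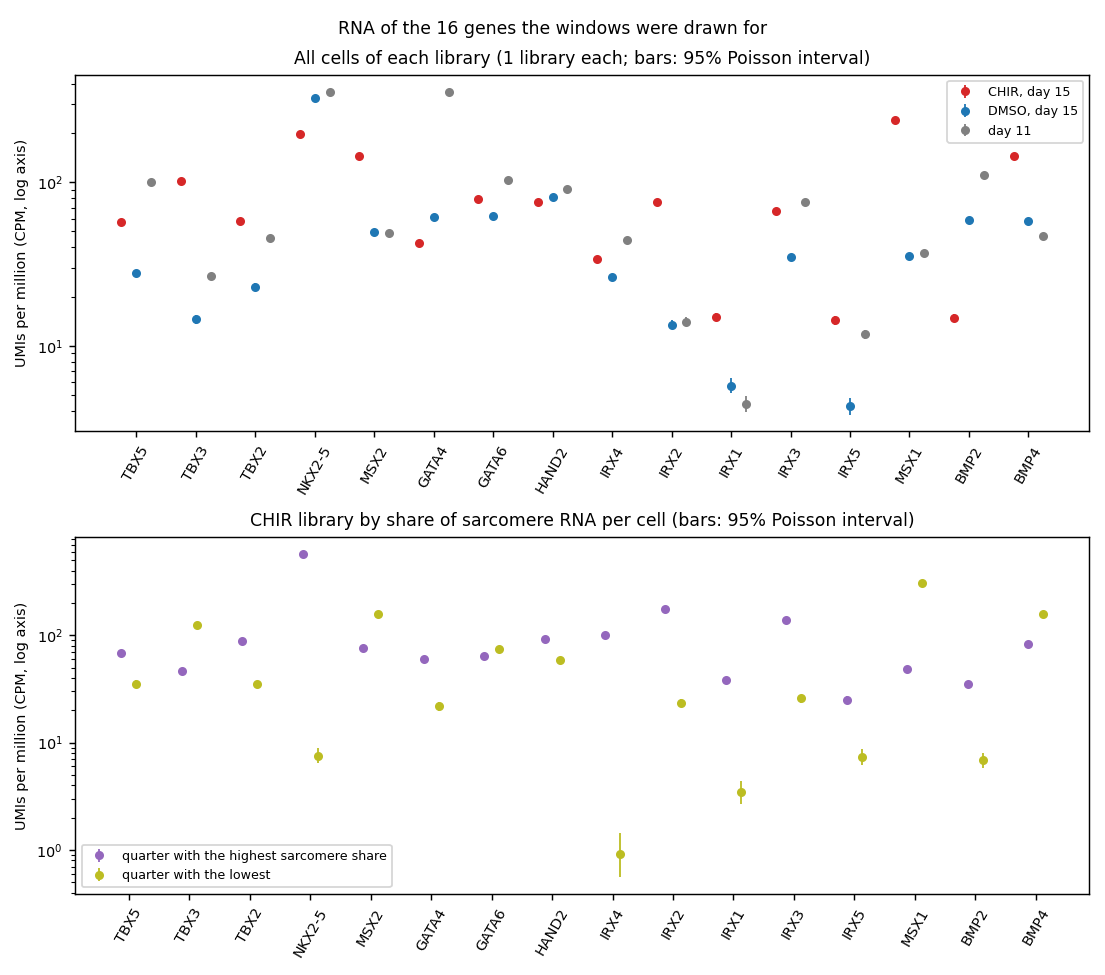
RNA of the 16 window genes in CPM (y axes, log scale), above in all cells of the CHIR, DMSO and day 11 libraries and below in the 25% of CHIR cells with the highest and the 25% with the lowest share of sarcomere RNA; bars are exact 95% Poisson intervals. MSX1 and TBX3 are higher with CHIR than with DMSO but, within the CHIR library, lower in the sarcomere-rich cells.

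No sorting step was named for the chromatin, so RNA was also compared within the CHIR library between the sarcomere-rich cells and the sarcomere-poor cells, the 25% with the lowest share, at 1402 cells each. These are the ends of a range and not cell types, and 166 of the 5607 cells lay within 10% of the upper boundary. The median share was 2.57% in sarcomere-rich and 0.0433% in sarcomere-poor cells. Mesenchymal markers summed to 570 CPM in sarcomere-rich and 4001 CPM in sarcomere-poor cells, with 8 of 8 detected in both. Of the 10 cardiomyocyte markers, 9 were detected in sarcomere-poor cells and MYH7 was at 0. Their low level there follows from the choice of cells by these markers. Median UMIs per cell were 14726.5 in sarcomere-rich and 13026.5 in sarcomere-poor cells.

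The 16 genes divided between these ends. In sarcomere-rich cells 11 were at least 1.5-fold higher, beside 25.9% of all genes, and 4 at least 1.5-fold lower, beside 23.4% of all genes. The most uneven were 2 muscle factors, NKX2-5 with 570 CPM in sarcomere-rich and 7.57 CPM in sarcomere-poor cells (75.3-fold, 64.3 to 88.7) and IRX4 with 102 CPM in sarcomere-rich and 0.922 CPM in sarcomere-poor cells (111-fold, 70.6 to 184). IRX2 had 175 CPM in sarcomere-rich and 23.3 CPM in sarcomere-poor cells, and BMP2 34.9 CPM in sarcomere-rich and 6.84 CPM in sarcomere-poor cells.

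GATA4 was 2.75-fold higher in sarcomere-rich cells, TBX2 2.55-fold, TBX5 1.94-fold and HAND2 1.59-fold, so these factors were present at both ends. GATA6 had 64.9 CPM in sarcomere-rich and 74.5 CPM in sarcomere-poor cells. The other 4 genes were lower in sarcomere-rich cells. MSX1 had 48.5 CPM in sarcomere-rich and 309 CPM in sarcomere-poor cells (6.38-fold lower, 5.98 to 6.81). TBX3 had 46.1 CPM in sarcomere-rich and 125.8 CPM in sarcomere-poor cells (2.73-fold lower, 2.54 to 2.94). MSX2 had 76.3 CPM in sarcomere-rich and 158 CPM in sarcomere-poor cells (2.08-fold lower, 1.96 to 2.21), and BMP4 had 83.1 CPM in sarcomere-rich and 160 CPM in sarcomere-poor cells (1.92-fold lower, 1.81 to 2.04). A peak list from a mixture cannot say in which of these cells a peak was marked.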

How the data were processed

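Per the submitters' processing notes, the chromatin reads were processed with Bowtie2 and MACS2 on hg19. Tool versions and the peak threshold are not given in the sources used here. A single peak list was deposited by the authors, made from the 2 replicates merged, per the labels, with a score, a fold enrichment (a linear ratio) and −log10 p- and q-values per peak. These are the authors' values and rank peaks within this list only. Of its 36607 peak numbers 11 had no row. Input chromatin was not analysed here. For RNA, the same notes name Cell Ranger 6.1.1 and GRCh38, and the authors deposited tables of raw UMI counts.

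From these, peaks were assigned by midpoint, joined into clusters and counted in bins, and UMI counts were summed per library with Python 3.11.15, numpy 2.4.6, pandas 2.3.3 and scipy 1.17.1. No cell was removed and doublets were not called. Genes needed a row in both tables and at least 20 UMIs over the groups compared. The sarcomere share was the share of a cell's UMIs from 10 cardiomyocyte markers. Libraries held 81076689 (CHIR), 65675862 (DMSO) and 75906387 (day 11) UMIs from 5607, 4015 and 5683 cells, and between 3 and 6 cell barcodes were shared by any 2 of them. Counting intervals are exact Poisson or exact conditional binomial at 95% and take UMIs as independent. The strongest and the widest peak and the largest cluster of each window and the 10 strongest peaks overall were named by rule, while the remaining clusters, the peaks wider than 5000 bases and those outside window ends were named after their values were seen. The windows, genes and lists were chosen with earlier results of these data known. The gap that joins peaks lay between the 5 and 25 kb also tried. Counting was tested on simulated data.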

Additional observations from a re-analysis of the deposited data

How the results depend on the processing

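Peaks put into windows by any overlap or by summit gave the same 342, and windows shortened by 0.1 Mb at each end gave 316. Only peaks with a −log10 q of at least 10 left 171 peaks (10.96 per Mb), peaks at or above the list's median fold left 155 (9.94 per Mb), and joining peaks closer than 1 kb left 187 (11.99 per Mb). The BMP2 window had 0 peaks in the first 2 of these. The genome's bins were not recounted for these shorter lists, so their densities cannot be set beside the mean of 11.9 per Mb of the full list. With the q minimum the median fold was 7.27 in the windows and 8.45 in the rest, and the median width 638 bases in the windows and 653 in the rest. With joined peaks the median fold was 6.01 in the windows and 6.54 in the rest, and the median width 834 bases in the windows and 776 in the rest, so that the windows then had the wider median. The top 5% and top 20% of the list held 6 and 48 window peaks by fold, 21 and 71 by width, and 8 and 47 by q. Clusters of at least 5 held 105 peaks with gaps of 5 kb (30.7%, beside 20.8% of the list), 186 with gaps of 25 kb (54.4%, beside 49.1%) and 39 of the 171 with the q minimum (22.8%, beside 15.4% of that list). Windows above the 75th percentile of bins numbered 7 with bins of 0.5, 1 or 2 Mb and 5 among bins with a peak.

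Leaving mitochondrial and ribosomal protein genes, 38.2% of UMIs with CHIR and 29.3% with DMSO, out of the totals raised every CHIR over DMSO ratio by 0.19 on the log2 scale. Genes lower with CHIR then numbered 1 (BMP2), as they did at 2-fold and among sarcomere-rich cells, an alternative chosen after seeing the data, because NKX2-5 was no longer past the fold. Over all genes 34.0% were then at least 1.5-fold higher and 21.1% lower. With each cell weighted equally 3 were lower, GATA4 included. Genes higher with CHIR numbered 9 at 2-fold and 10 in every other setting run. Among sarcomere-rich cells the 10 were not the same genes, since TBX5 dropped out (1.26) and IRX4 came in (2.28). Dropping the UMI minimum could not change the count, because all 16 genes passed it. Shares over all genes were not computed at 2-fold, with cells weighted equally or among sarcomere-rich cells. No paired analysis was possible because the chromatin replicates were merged into 1 list and no test was made, and for the same reason no replicate could be left out.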

Other observations

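Genes of the BMP pathway beyond the ligands differed in both directions between the day 15 libraries. Of 20 receptors, SMADs, antagonists and response genes, 4 were at least 1.5-fold higher with CHIR, beside 25.6% of all genes, 4 lower, beside 26.2%, and 12 between. ID2, a helix-loop-helix response gene, had 334 CPM with CHIR and 109.9 CPM with DMSO (3.04-fold, 2.96 to 3.12). ID3, of the same family, had 493 CPM with CHIR and 881 CPM with DMSO, a ratio of 0.560 that was 0.277 among sarcomere-rich cells. SMAD6, an inhibitor of the pathway, had 12.7 CPM with CHIR and 21.6 CPM with DMSO, a ratio of 0.588 that was 0.359 among sarcomere-rich cells. For ID2 that ratio was 1.52. Of 12 other cardiac factors, 11 were listed in both tables, of which 2 were higher and 7 lower with CHIR, beside the same 25.6% and 26.2% of all genes. HAND1 had 288 CPM with CHIR and 178 CPM with DMSO, whereas ISL1, a factor of cardiac progenitors, had 9.30 CPM with CHIR and 27.4 CPM with DMSO, and SHOX2, a sinus node factor, 0.567 CPM with CHIR and 7.81 CPM with DMSO. The CHIR over DMSO ratios among sarcomere-rich cells were 1.60 for HAND1, 0.141 for ISL1 and 0.0135 for SHOX2, the last from 5 UMIs with CHIR.

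Peaks were not assigned to genes, so the nearest protein-coding genes on each side, by their order in RefSeq on GRCh38.p14, were also measured. Of 25 such neighbours 17 were listed in both tables and passed the UMI minimum, 6 of them at least 1.5-fold higher and 8 lower with CHIR, beside 25.6% and 26.2% of all genes. TBX4 and IRX6 were in both lists. TBX4 had 145 UMIs with CHIR and no row in the DMSO table used, so it was given no ratio. MIB1, beside GATA6, had 41.4 CPM with CHIR and 25.7 CPM with DMSO. SCRG1, beside HAND2, had 20.0 CPM with CHIR and 70.9 CPM with DMSO. The genes on both sides of BMP4 were DDHD1, with 23.4 CPM with CHIR and 8.37 CPM with DMSO, and CDKN3, with 37.7 CPM with CHIR and 65.9 CPM with DMSO.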
